A study of Mus musculus with 2 samples.

Results

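In newborn mouse ovary, 115 of 26573 autosomal peaks (0.433%) of RNA recovered with an antibody against ELAVL2 lay over genes annotated as pseudogenes. They were taken from the authors' deposited gene table as the peaks that overlap a gene whose description contains the word pseudogene, without regard to their enrichment. The whole peak list held 28332 peaks. The 115 peaks fell in 62 pseudogenes on all 19 autosomes. Of these peaks, 85 overlapped a pseudogene alone and 30 also overlapped another gene.

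The study has 1 sample of RNA from the ELAVL2 RIP and 1 of input RNA, both from ovaries at postnatal day 0. In RIP-seq (RNA immunoprecipitation and sequencing) an antibody brings down a protein with its bound RNA, and the recovered RNA is set against the RNA of the lysate. One lysate of 100 ovaries is described, with 5 ug of antibody for the RIP and 5% of the starting material as input, and no strain, genotype or control antibody is given. The 3 pooled lanes of each arm held 172711531 RIP tags and 210270620 input tags. After removal of tags at the same position, 13787676 RIP tags and 19479946 input tags were used for peak calling. With 1 sample per arm, no value here has a replicate check and no difference was tested. Binding to ELAVL2 and other ways of being kept on the beads cannot be told apart. Among marker genes, 6 of 10 germ cell and oocyte genes held a peak (Ddx4, Dazl, Kit, Lhx8, Bmp15 and Taf4b), as did 1 of 6 granulosa genes (Fshr), 1 of 3 endothelial genes (Tek), 0 of 3 stromal genes and 0 of 2 blood genes. By symbol, 22.7% of all RefSeq protein-coding genes on the autosomes and X held a peak. A peak is not an expression level, so the marker counts say nothing of the share of each cell type.

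Pseudogenes are copies of genes that have lost the ability to make the original protein. Processed pseudogenes arise when a messenger RNA is copied back into DNA and inserted elsewhere, so they lack introns, often lie inside unrelated genes and may or may not be transcribed, whereas duplicated pseudogenes keep the exon structure of the parent. ELAVL proteins bind U- and AU-rich stretches, mostly in introns and 3′ untranslated regions, and regulate splicing, stability and translation. A read that lies within sequence shared by a parent gene and its copies cannot be assigned to 1 of them by its letters alone, which bears on reads as short as the 36 bases used here.

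The fold enrichment of each peak, the RIP pileup over the scaled local input after 1 is added to both, is the authors' value, as are the pileup (RIP tags over the summit) and the -log10 q. The 115 pseudogene peaks had a median fold of 2.52 (quartiles 1.99 to 3.49) and a range of 1.70 to 9.59. The 20016 other autosomal peaks in genes had a median fold of 3.26 (quartiles 2.45 to 4.63). The pileup ran the other way. Its median was 40 tags over pseudogenes (quartiles 24.5 to 53) and 28 tags over other genes (quartiles 15 to 40). A pileup of at least 50 was found at 34 pseudogene peaks (29.6%, exact 95% interval 21.4 to 38.8) and at 10.2% of the other peaks in genes. A fold of at least 5 was found at 13 pseudogene peaks (11.3%, interval 6.16 to 18.6) and at 20.2% of the others. The intervals are Clopper-Pearson intervals and cover counting error only, and peaks of 1 pseudogene are not independent.

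The input level implied by pileup and fold differed between the sets. This level is the local background of the peak caller, in units of the scaled input, and it had a median of 14.9 at pseudogene peaks and 7.79 at other peaks in genes. Levels of 20 or more were found at 43 pseudogene peaks (37.4%) and at 12.8% of the others. The level is itself computed from pileup and fold, so folds of peaks at a given level are partly bound to be alike. Within bands of the input level the median folds lay close together. At levels of 20 or more the median was 1.93 for pseudogene peaks and 2.01 for the others. At 10 to 15 it was 2.71 for pseudogene peaks and 2.68 for the others, and at 1 to 5 it was 4.63 for pseudogene peaks and 4.53 for the others. Below a level of 1, where 6 pseudogene peaks fell, it was 6.61 for pseudogene peaks and 5.85 for the others. The lower median fold of pseudogene peaks went together with a higher input level. Keeping 1 tag per position limits both the pileup and the input level, and its part in this pattern was not tested. Only 2 pseudogene peaks (1.74%, interval 0.211 to 6.14) sat at the genome-wide background level, against 5.00% of the others.

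**Figure D1:**
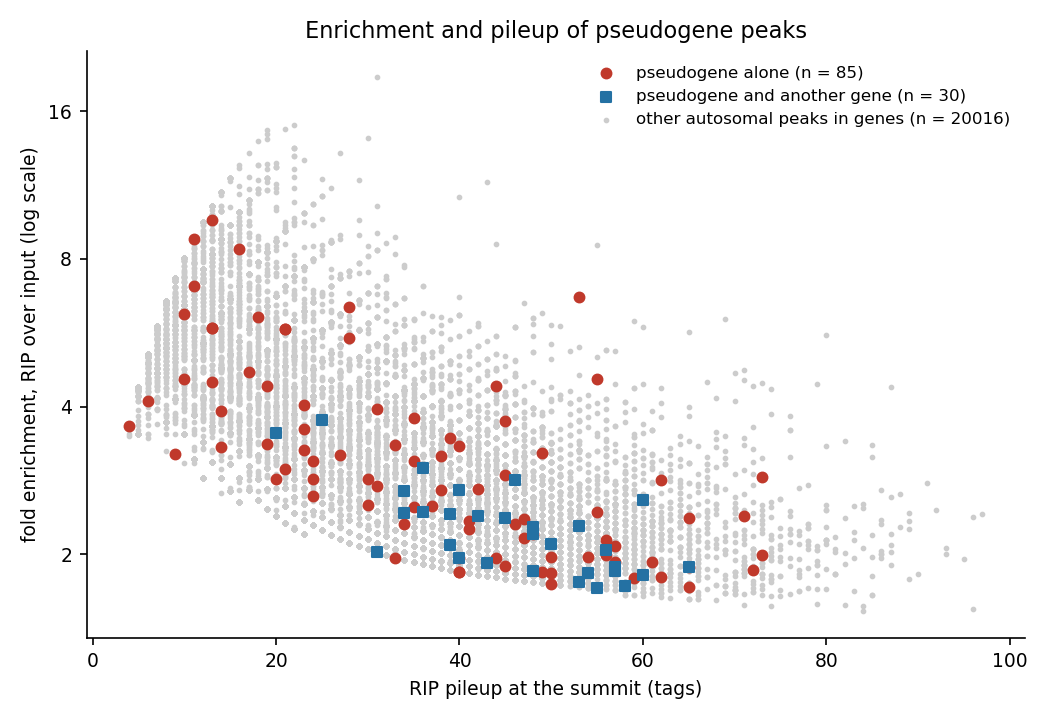
Fold enrichment (log scale) against RIP pileup in tags for the 85 peaks over a pseudogene alone (red circles), the 30 that also overlap another gene (blue squares) and the 20016 other autosomal peaks in genes (grey). Each point is 1 peak. The squares lie at pileups of 20 to 65 and folds of at most 3.76, while the circles reach 9.59 at a pileup of 13.

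Of the 62 pseudogenes, 34 held 1 peak, 16 held 2, 6 held 3 and 6 held at least 4. The 6 with at least 4 peaks carried 31 of the 115. In their descriptions 35 were named after a gene or gene family and 27 were numbered predicted pseudogenes. The median annotated body was 905 bp, with a range of 216 to 72549 bp. The 13 bodies of 5 kb or more held 33 peaks with a median fold of 3.92 and a median pileup of 28. The 49 shorter bodies held 82 peaks with a median fold of 2.29 and a median pileup of 41.5. A best fold of at least 5 was reached by 9 pseudogenes, 6 of them among the 13 long ones, and 19 pseudogenes stayed below 2.

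Speer5-ps1, a relative of the rodent Speer genes expressed in the testis, had the largest -log10 q of the set, 21.7 (chromosome 10, 44211403 to 44219188, mm10). Its 4 peaks had folds of 3.96, 3.73, 4.41 and 6.68 and pileups of 31, 45, 44 and 53 tags in genomic order. The strongest was 508 bp long and ran past the annotated 3′ end, from 44219132 to 44219639. Its summit, at 44219390, lay beyond that end, so its fold, pileup and -log10 q belong to a point outside the body. Among the peaks with the summit inside, the largest -log10 q was 11.7. All 4 peaks lay above the median fold of other genic peaks at a pileup above the median of those peaks.

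Gm12504 (chromosome 4, 44121893 to 44124123) came next by -log10 q, at 15.1. Its 1 peak had 55 tags and a fold of 4.54. In the RefSeq gene table this peak lies over Ptma-ps2, a transcribed pseudogene whose symbol refers to prothymosin alpha, a small nuclear protein.

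Sh3d2c-ps1 (chromosome 2, 23680218 to 23681121) held 1 peak of 54 bp with a fold of 6.39, a pileup of 28 tags and a -log10 q of 11.6. Its name uses an older symbol of Sh3gl3, which encodes an endophilin of endocytosis. Ak3l2-ps, named after an adenylate kinase, an enzyme that moves phosphate between nucleotides, held 1 peak with a fold of 5.74 at 21 tags. That peak ran over the 5′ end of the annotated 672 bp body, and its summit, where fold and pileup are given, lay upstream of the body.

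The 3 largest folds stood on low pileups. Gm8257 had folds of 9.59 and 5.80, both at 13 tags. Mettl4-ps1, a copy of an adenine methyltransferase gene, had a fold of 8.77 at 11 tags, where the input was at the genome-wide background of 0.369, and a fold of 3.19 at 27 tags. Gm16026 held 6 peaks with folds of 4.48 to 8.39 and pileups of 10 to 28 tags within 3128 bp of its 18794 bp body. In the RefSeq table the Gm16026 peaks lie inside 2 protein-coding genes, Gm38510 and C130026I21Rik, and the Mettl4-ps1 peaks lie inside Spdya, a cell cycle activator of CDK2.

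Alms1-ps1, a copy of a gene for a centrosomal protein, had 1 peak with a fold of 7.03 at 11 tags. Alms1-ps2 had 1 peak with a fold of 4.55 at 10 tags. Vmn2r-ps49, from the vomeronasal pheromone receptors, had a fold of 6.08 at 18 tags, and Vmn2r-ps54 had a fold of 3.79 at 35 tags. The Vmn2r-ps54 peak covers 155 bp of a 59215 bp body, and in the RefSeq table it lies over Cd9-ps, a pseudogene of a tetraspanin gene. At a pileup of at least 20 tags the best fold of Gm8257, Alms1-ps1, Alms1-ps2 and Vmn2r-ps49 has no value, since none of their peaks reached it.

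Zfp862-ps held the most peaks, 9. All lay between 48522400 and 48525073 on chromosome 6, that is within 2674 bp, or 8.77% of its 30496 bp body. Their folds were 1.99 to 2.90 and their pileups 42 to 73 tags. Of the 9, 5 lie in the RefSeq annotation over Gm7887, which is a pseudogene there. The authors' table calls Gm7887 a predicted gene, of 537 bp, inside Zfp862-ps on the opposite strand. Zfp862-ps and Vmn2r-ps54 are the 2 among the 13 bodies of 5 kb or more with another RefSeq pseudogene under a peak.

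**Figure D2:**
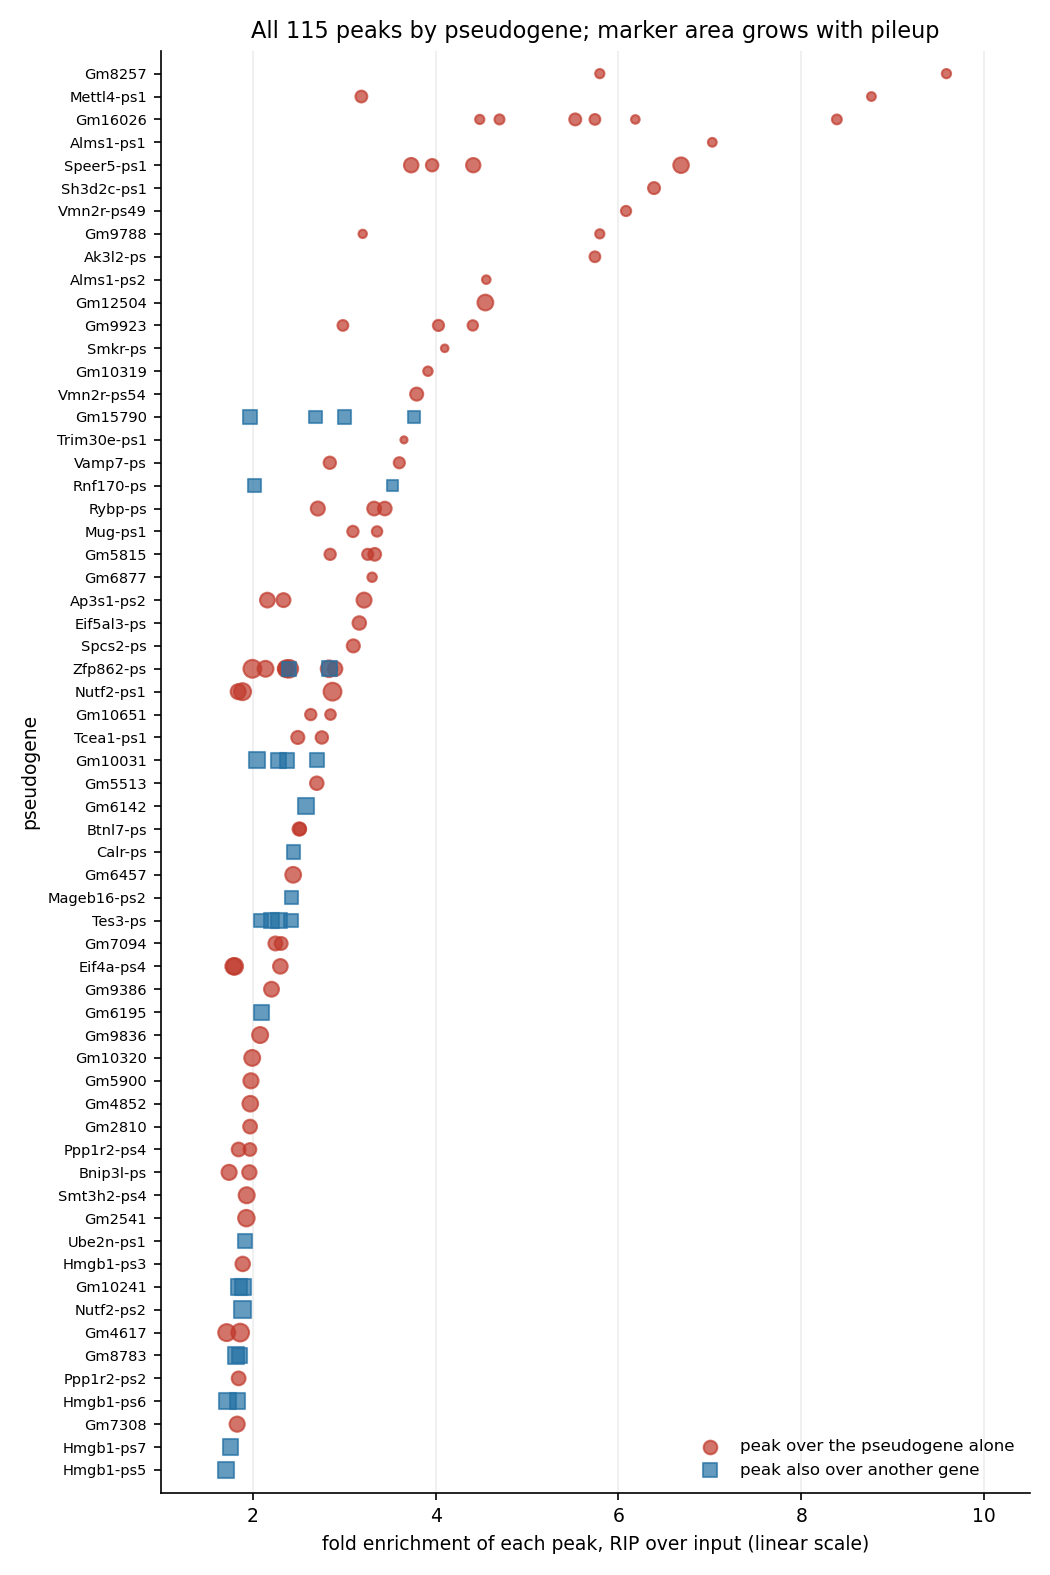
Fold enrichment of all 115 peaks, 1 row per pseudogene, ordered by best fold from the top. Red circles are peaks over the pseudogene alone, blue squares peaks that also overlap another gene, and the marker area grows with the pileup. The rows at the top hold mostly small markers, with Speer5-ps1 as an exception, and the 19 lowest rows stay below a fold of 2 with large markers.

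By the function of the named gene, the largest groups were membrane traffic and transport with 6 pseudogenes and 11 peaks (median fold 2.84), chromatin and HMG with 5 pseudogenes and 8 peaks (1.86), and proteasome and ubiquitin with 5 pseudogenes and 9 peaks (2.20). Of these peaks, 1 of the 11 in membrane traffic and transport, 4 of the 8 in chromatin and HMG and 7 of the 9 in proteasome and ubiquitin also overlapped another gene. The 4 Hmgb1 copies, of the gene for an abundant chromatin protein, supplied 5 of the 8 chromatin peaks. Their folds were 1.89 in Hmgb1-ps3, 1.72 and 1.83 in Hmgb1-ps6, 1.76 in Hmgb1-ps7 and 1.70 in Hmgb1-ps5. Pileups at these 5 peaks were 45 to 58 tags, so the Hmgb1 copies combine high RIP pileup with a high input level, and 4 of the 5 peaks also lie in Senp5, Vmn2r59 or Ctss. Translation factors were represented by Eif4a-ps4, named after an RNA helicase of initiation, with 3 peaks of fold 1.79 to 2.30, and by Eif5al3-ps with 1 peak of fold 3.16 at 38 tags. Bnip3l-ps, a copy of a mitophagy receptor gene, held peaks of fold 1.74 and 1.96. No pseudogene named after a ribosomal protein gene was among the 62, of which 27 carry only a number, and the number of such names open to the choice was not counted.

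The next comparison asked whether the parent gene was also in the peak list. For 24 of the 35 named pseudogenes a parent could be resolved, 16 through the description, 5 through the symbol and 3 through an older symbol in the RefSeq table. They point to 18 parents. The parent was overlapped by a peak for 21 of the 24 (87.5%, exact interval 67.6 to 97.3), which is 16 of the 18 parents. By symbol, 22.7% of RefSeq protein-coding genes on the autosomes and X were overlapped by a peak. With only peaks paired with exactly 1 gene, as overlapped or nearest, the parent held a peak for 38.5% of resolved pseudogenes (interval 13.9 to 68.4), against 9.45% of coding genes. Descriptions were looked up only among genes paired with a peak. The parents of 16 of the 24 were thus drawn from genes with a peak in or near them. The 3 pseudogenes whose parent held no peak were resolved through the symbol, which has no such limit. Neither share can therefore be compared with that of all coding genes. Pseudogenes named after families rather than 1 gene, such as Vmn2r, Mug and Eif4a, were among the 11 left unresolved.

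The 16 parents held 121 peaks, 2 to 20 each. Pseudogene peaks of these pairs, 36 in all, had a median fold of 2.18, a median pileup of 41.5 tags and a median input level of 19.7. The parents' peaks had a median fold of 2.57, a median pileup of 42 tags and a median input level of 16.3. The best fold was higher in the pseudogene for 5 pairs and higher in the parent for 16. In number of peaks 20 pseudogenes had fewer than the parent, and Rybp-ps had as many as Rybp, 3. A parent with more peaks has more chances of a high best fold, so the count of best folds is a description.

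The 5 pseudogenes above their parents were Mettl4-ps1 with a best fold of 8.77 against 6.77 in Mettl4, Sh3d2c-ps1 with 6.39 against 4.10 in Sh3gl3, Rybp-ps with 3.44 against 3.33 in Rybp, Spcs2-ps with 3.10 against 2.58 in Spcs2, and Calr-ps with 2.44 against 2.16 in Calr. Spcs2 encodes a subunit of the signal peptidase and Calr the chaperone calreticulin. Ap3s1-ps2, from a subunit of the AP-3 adaptor of vesicle transport, had folds of 2.34, 2.16 and 3.22 in its 3 peaks, against a best fold of 5.95 among the 6 peaks of Ap3s1. Rnf170-ps reached 3.53, against 3.75 in Rnf170, a ubiquitin ligase gene with 12 peaks. Tcea1-ps1 reached 2.75, against 2.84 in Tcea1, which encodes an elongation factor of RNA polymerase II. The widest gap was in Bnip3l-ps with 1.96, against 8.28 in Bnip3l, whose best peak had 19 tags.

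Parents without an overlapping peak were Alms1 and Vamp7. Vamp7-ps, a copy of a gene for a vesicle fusion protein, held peaks of fold 3.60 at 23 tags and 2.84 at 30 tags. Neither parent was paired with a peak as a nearest gene.

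**Figure D3:**
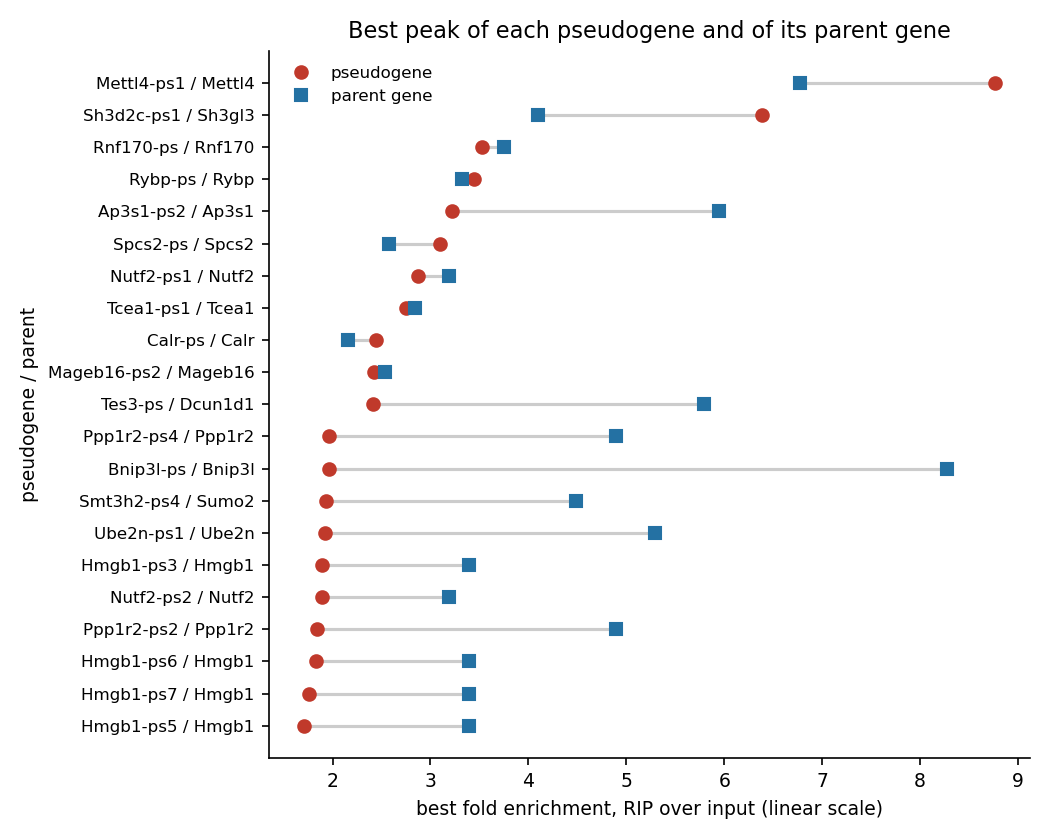
Best fold enrichment of the pseudogene (red circles) and of its parent gene (blue squares) for the 21 pairs in which both hold a peak, joined by a grey line. The circle lies right of the square in 5 pairs, and all 4 Hmgb1 copies lie below 2 with Hmgb1 at 3.39.

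Several pseudogene peaks had the same values as a peak of the parent. Of the 36 peaks in these pairs, 7 (19.4%, interval 8.19 to 36.0), in 7 pseudogenes, had a parent peak with equal pileup and an equal fold to 5 decimals. This comparison was chosen after the values were seen, and such a match of pileup and fold is not rare, since the pairs of values were shared by 4 to 37 peaks in the whole list. Distances between summits were compared as well, without the rate of agreement among unrelated genes. In Rybp-ps (chromosome 13, 66007672 to 66009240), a copy of a Polycomb-associated gene, the 3 peaks had 39, 42 and 40 tags, and the 3 peaks of Rybp on chromosome 6 had 39, 42 and 40 tags. From the first summit the others lay 112 and 447 bp downstream in the pseudogene and also 112 and 447 bp downstream in Rybp. The folds were 3.44, 2.71 and 3.33 in Rybp-ps and 3.25, 2.59 and 3.33 in Rybp.

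The Nutf2 copies, from the gene for the factor that imports Ran into the nucleus, showed equal values at 3 places. Nutf2-ps1 on chromosome 19, Nutf2-ps2 on chromosome 18 and Nutf2 on chromosome 8 each had a peak with 65 tags and a fold of 1.89. This peak was 282 bp long in both pseudogenes, 85 bp long in Nutf2, and in Nutf2-ps2 its summit lay past the annotated 3′ end. A further peak lay 202 bp downstream with 73 tags and a fold of 2.87 in Nutf2-ps1, and 201 bp downstream with 76 tags and a fold of 3.16 in Nutf2. The corresponding place of Nutf2-ps2 lies outside its annotated body, where a peak of 66 tags and fold 2.04 was listed with its summit 88 bp downstream.

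Mageb16-ps2 on chromosome 6 and Mageb16 on chromosome X, of the MAGE family, each had a peak of 81 bp with 34 tags and a fold of 2.42. Among 1453 pairs of summit distances compared between pseudogenes and parents, 6 agreed within 2 bp. Of these 6, 3 came from Rybp, where 2 distances fix the third, and 1 came from Nutf2. The other 2 came with unequal pileups. In Rnf170-ps the distance was 280 bp between peaks of 20 and 31 tags, against 278 bp between peaks of 45 and 37 tags in Rnf170. In Tes3-ps it was 140 bp between peaks of 39 and 53 tags, against 138 bp between peaks of 30 and 36 tags in Dcun1d1, for which Tes3 is an older symbol. The treatment of reads that fit several places is not stated in the sources used here, and the part of such reads in these matches was not tested.

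A search without parent names looked for twins, that is, peaks elsewhere with the same length, summit offset, pileup and fold to 2 decimals. It does not find a copy whose peak is mirrored. Of the pseudogene peaks, 12 (10.4%, interval 5.51 to 17.5) had a twin, against 5.35% of the other autosomal peaks in genes. With only peaks paired with exactly 1 gene, as overlapped or nearest, the order turned, with 3 of 63 pseudogene peaks (4.76%, interval 0.993 to 13.3) against 5.11% of the others. Short peaks with few tags often share values, and among peaks of at least 60 bp 6 of 78 pseudogene peaks had one (7.69%, interval 2.88 to 15.99), against 1.7% of the others. The 60 bp limit was set after the values were seen. Besides the Nutf2 and Mageb16 pairs, the longer twins linked Gm16026 to a peak on an unplaced contig of chromosome 1, Gm9923 to Hbs1l and Zfp862-ps to Pcnp.

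The Gm9923 peaks on chromosome 10 had folds of 4.41, 2.99 and 4.03 at 19, 21 and 23 tags. Hbs1l, a ribosome rescue factor gene at another place on chromosome 10, had peaks of fold 4.41 at 19 tags and 2.99 at 21 tags, of the same lengths of 60 and 75 bp. Their summits were 422 bp apart in Gm9923 and 417 bp apart in Hbs1l. The third Gm9923 peak had no such partner among the 4 peaks of Hbs1l.

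The Zfp862-ps peak that had a twin in Pcnp, the gene for a small nuclear protein, was 157 bp long with 65 tags and a fold of 2.37. Along the strand of Gm7887 a peak of 47 tags lay 247 bp before it in Zfp862-ps and 251 bp before it in Pcnp. A peak of 71 tags lay 271 bp after it in Zfp862-ps and 269 bp after it in Pcnp, with folds of 2.40 in Zfp862-ps and 1.87 in Pcnp. Further on, a peak of 56 tags lay 991 bp after it in Zfp862-ps and 512 bp after it in Pcnp, and a peak of 73 tags and fold 1.99 lay 1498 bp after it in Zfp862-ps and 1015 bp after it in Pcnp. The peaks of 56 and 73 tags thus matched in pileup but not in distance from the twin. Both lay nearer to the twin in Pcnp by a similar length, so their spacing from each other was alike in both genes. The remaining peaks of Zfp862-ps, those of 46, 42, 62 and 45 tags, had no partner in Pcnp by pileup or distance. The authors' table also places those of 46 and 42 tags in Gm7887.

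Gm10031 carries the name Csnk2a3 in the RefSeq table, after the kinase CK2, and was therefore set beside Csnk2a1, the gene for the CK2 alpha subunit. The Gm10031 peaks had 48, 40, 56 and 45 tags. Csnk2a1 held 12 peaks, and 1 of them had the same 56 tags and fold of 2.04 as the third peak of Gm10031. The peak of 48 tags lay 634 bp before it in Gm10031, and a peak of 48 tags lay 632 bp before it in Csnk2a1. The other peaks of Gm10031 agreed less. The peak of 40 tags lay 493 bp before the equal peak, against 44 tags at 485 bp before it in Csnk2a1. The peak of 45 tags lay 156 bp after the equal peak, while the next peak of Csnk2a1 had 46 tags at 295 bp. The Pcnp, Hbs1l and Csnk2a1 pairs were chosen after their values were seen.

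**Figure D4:**
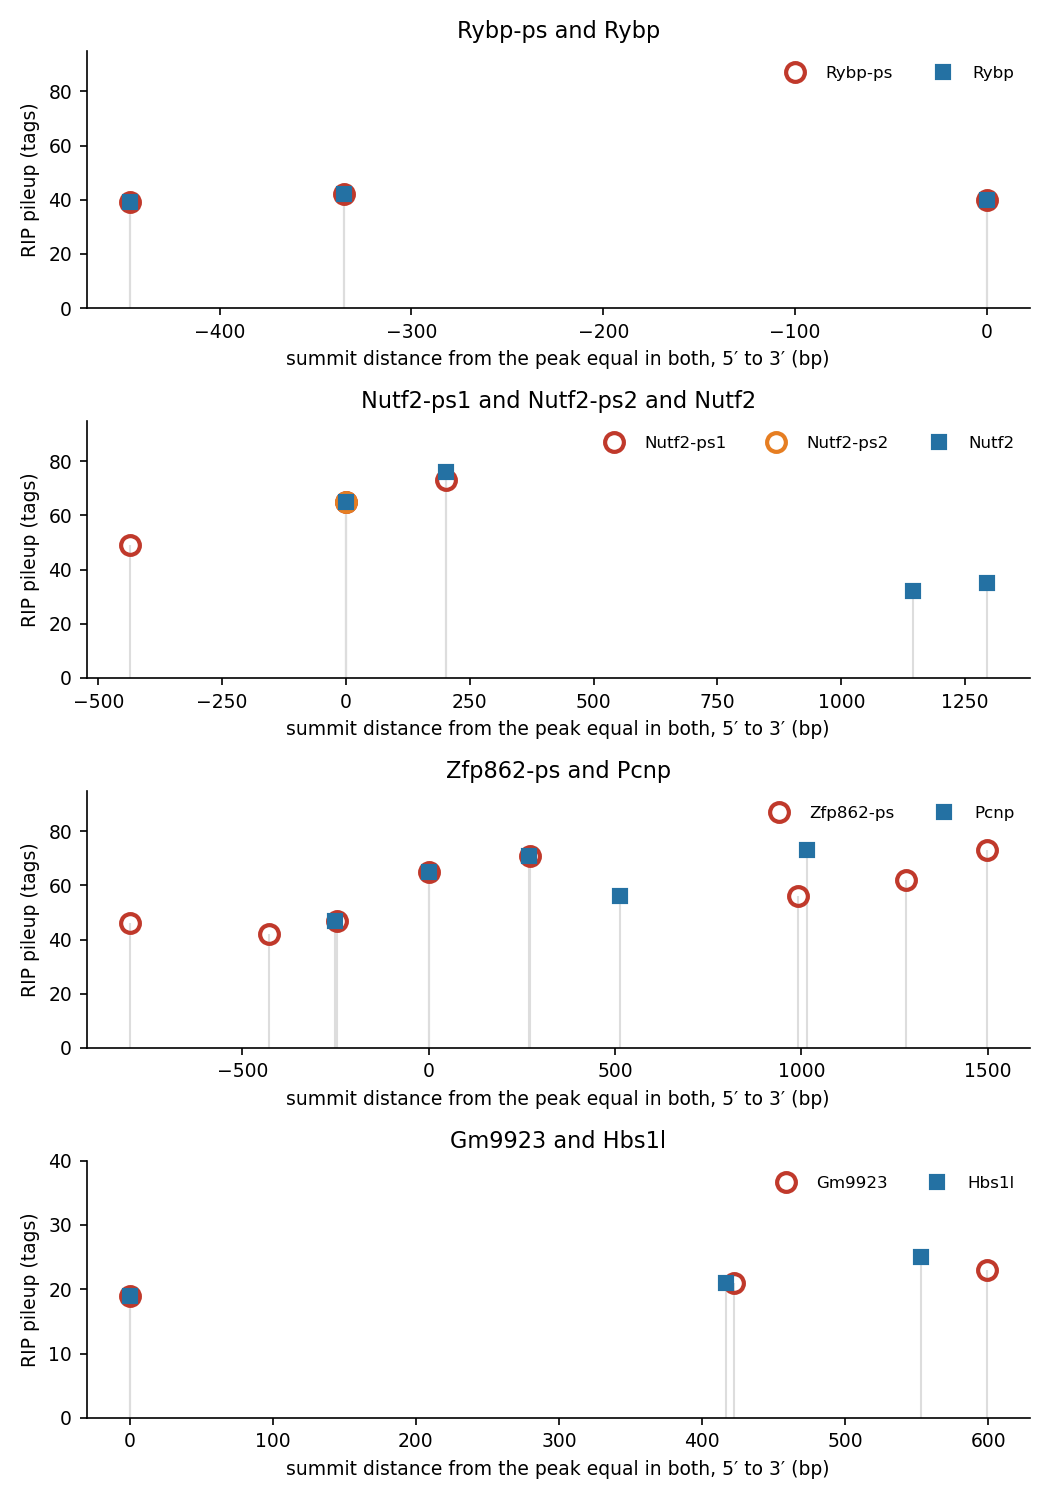
RIP pileup in tags of each peak against the distance of its summit from the peak that is equal in both genes, 5′ to 3′ in bp, for 4 sets of a pseudogene (open circles) and the gene it matches (filled squares), within 1500 bp. For Zfp862-ps the direction is that of Gm7887. The equal peaks coincide by construction. All 3 Rybp summits coincide, and the Nutf2 peak of 65 tags is present 3 times. Beyond the equal peak, Zfp862-ps and Gm9923 have some summits within a few bp of those in Pcnp and Hbs1l and hold others alone.

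The 30 peaks that also overlapped another gene made up 26.1% of the pseudogene peaks (exact interval 18.3 to 35.1). Among all autosomal peaks in genes, 8.93% overlapped at least 2 genes. These 30 peaks had a median fold of 2.15 (quartiles 1.89 to 2.44), a median pileup of 47 tags and a median input level of 20.9. The 85 peaks over a pseudogene alone had a median fold of 2.85 (quartiles 2.14 to 3.96), a median pileup of 38 tags and a median input level of 11.3. None of the 30 had a fold of at least 5, a share for which the interval reaches 11.6%, while 13 of the 85 did.

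The 30 peaks lay in 16 pseudogenes and 16 other genes, 8 on the same strand as the pseudogene and 8 on the opposite strand. Peaks carry no strand here, so the RNA cannot be assigned to either gene by direction. The largest fold, 3.76 at 25 tags, was in Gm15790 inside Thsd7b, a gene of 945977 bp, where 4 peaks lay in the pseudogene and 2 elsewhere in Thsd7b reached a fold of 3.32. Rnf170-ps lay inside Cyp2b13, a cytochrome P450 gene, with 2 peaks in the pseudogene and 7 elsewhere in the gene. Gm6142 lay inside Adcy9, an adenylate cyclase gene, with 1 peak of fold 2.58 at 60 tags, and 3 peaks elsewhere in Adcy9 reached a fold of 7.94 at 10 tags.

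Calr-ps supplied 1 of the 17 peaks of Macrod2, Ube2n-ps1 supplied 1 of the 14 peaks of the circadian gene Clock, and Tes3-ps supplied 4 of the 12 peaks of the centromere gene Cenpp. For 3 of the 16 other genes every peak lay over the pseudogene. They were Gm7887 with 2 peaks, the unnamed gene ENSMUSG00000106852 with 4 peaks shared with Gm10031, and Sgk3, a kinase gene, with 1 peak of fold 2.09 at 50 tags over Gm6195. In all, 7 peaks are counted for those 3 genes through a pseudogene.

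By coordinates in the RefSeq table, 34 of the 115 peaks lay over a gene that is no pseudogene. Of the 85 peaks alone in the authors' table, 10 did so, among them the 6 of Gm16026, the 2 of Mettl4-ps1 and the 1 of Ppp1r2-ps2 inside Iqsec1. Of the 62 symbols 58 were found in RefSeq, 57 of them with a pseudogene biotype. Smkr-ps is a lncRNA there and accounts for the last of the 10.

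Along the annotated body, the summits of pseudogene peaks were spread out. Summits outside the body were counted at the nearer end, in all sets. Only 9 of the 115 (7.83%, exact interval 3.64 to 14.3) lay in the last 10% of the body towards the 3′ end or past it. Those of Speer5-ps1 and Nutf2-ps2 lay past it. Of 18248 other peaks in exactly 1 gene, 47.0% lay there. Among the 701 of those peaks in bodies under 5 kb the share was 28.8% (interval 25.5 to 32.3), against 8 of 82 (9.76%, interval 4.31 to 18.3) in pseudogenes under 5 kb. In pseudogenes of 5 kb or more, 16 of 33 summits fell between 60 and 70% of the body, and 8 of these were in Zfp862-ps and 5 in Gm16026. The 3′ end of a pseudogene in the annotation need not be the end of a transcript. In total 108 peaks lay wholly inside the body, 4 ran over the 3′ end and 3 over the 5′ end, and 110 summits were inside.

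**Figure D5:**
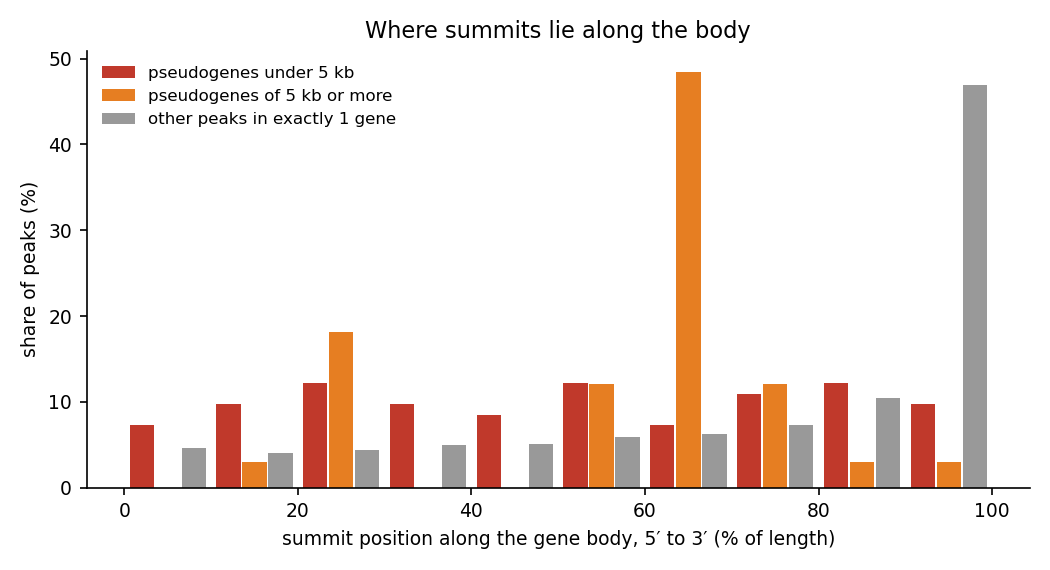
Share of summits in each 10% of the annotated body, 5′ to 3′, for 82 peaks in pseudogenes under 5 kb (red), 33 peaks in pseudogenes of 5 kb or more (orange) and 18248 other peaks in exactly 1 gene (grey). Summits outside the body are counted at the nearer end. The grey bars reach 47.0% in the last 10%, where the red bar is at 9.76% and the orange bar at 3.03%.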

How the data were processed

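The authors pooled 3 lanes of each arm for peak calling in MACS2 (tags extended to 50 bp, 1 tag per position, q cutoff 0.05, local windows of 1000 and 10000 bp), per the file headers. TopHat2 2.0.8b, MACS2 2.1.0.20140616 and mm10 are named in the submitters' processing notes. The signal in the deposited peak list is the RIP pileup at the summit. The fold enrichment is a ratio over scaled input with a pseudocount of 1, and it and the -log10 q are the authors' values, per the file headers. The making of the authors' deposited gene table is not stated in the sources used here. Of its 85730 rows, 42176 repeats were dropped.

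The input level was computed as (pileup + 1) / fold - 1. All 115 peaks were kept, with no filter on low values. Parents were resolved by description in the authors' gene table, which holds only genes paired with a peak, or by symbol or older symbol in RefSeq (GRCm38.p6). Scripts (Python 3.11.15, pandas 2.3.3, scipy 1.17.1) were tested on simulated data. No per-sample columns were left unused. Members and lists were chosen with earlier results of these data known. Named were the 10 pseudogenes of largest fold among peaks of 20 tags or more, the 10 by -log10 q, the 5 with most peaks, those with or without a peak in the parent, the leading ones of each functional group and 10 overlapped genes, not all of which are reported here. Further examples were chosen after their values were seen. Alternatives changed thresholds, overlap, chromosomes, parent and twin rules. No genome was used here, so no sequence is shown.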

Additional observations from a re-analysis of the deposited data

Results flagged for a closer look

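On chromosome X, which the values above leave out, 17 peaks overlapped 13 pseudogenes. Their median fold was 2.78, their median pileup was 42 tags, and the largest fold was 6.20 in Gm9003. Outside the word-based choice, 885 autosomal peaks lay by coordinates over 477 RefSeq pseudogenes without being paired in the authors' table with a gene whose description holds the word. Their median fold was 2.69, their median pileup 39 tags and their median input level 14.2. The 115 peaks described above had medians of 2.52, 40 tags and 14.9. No control sample bears on either set, and no difference was tested.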

How the results depend on the processing

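Of 54 recomputed values, 41 stayed within the counting interval of the value given above or, for counts, within 1.5 times of it, and 13 did not. With a -log10 q of at least 3, 74 peaks in 40 pseudogenes were left, with median folds of 3.05 for all, 3.29 for those alone and 2.43 for those also over another gene. With peaks paired with exactly 1 gene, as overlapped or nearest, 63 peaks in 39 pseudogenes were left, 0% overlapped another gene by construction, so that their median fold has no value, 38.5% of resolved parents held a peak (the same limit applied to the parents' peaks) and 4.76% of peaks had a twin. With parents by exact description, 100% held a peak, a value largely fixed in advance, since only genes paired with a peak could be found that way. With twins by length and pileup alone, 79.1% had one, against 84.0% of the other peaks in genes. Using the RefSeq biotype for the choice of peaks, an alternative added after seeing the data, gave 988 peaks, 103 of them among the 115. A pileup of at least 20, the summit inside the body, all chromosomes, merging within 100 bp and a fold without the pseudocount left every value they gave within these limits. No paired analysis was possible because there is 1 sample per arm and the values come from no test.

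With 1 RIP and 1 input sample the spread between experiments is unknown. The removal of tags at the same position limits the pileup of abundant RNA. The 4 largest folds come from peaks of 11 to 16 tags, and such peaks rest on few tags.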

Other observations

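By coordinates, 508 of 9496 autosomal RefSeq pseudogenes (5.35%) were overlapped by a peak, and 24.4% of 20665 autosomal RefSeq protein-coding genes were. The bodies differ in length, which was not matched here. Of the 115 peaks, 12 lay over no RefSeq pseudogene. By chromosome, 22 of the 115 peaks were on chromosome 1 and 18 on chromosome 6, of which 9 belong to Zfp862-ps. The 6442 autosomal peaks outside genes had a median fold of 4.68 at a median pileup of 13 tags, so that peaks over pseudogenes lay below both sets of other autosomal peaks in median fold and above both in median pileup.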
